A study of Homo sapiens with 6 samples.

Results

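Polycomb repressive complex 2 (PRC2) was followed through the mRNAs of 10 genes: the alternative methyltransferases EZH2 and EZH1, the core subunits EED, SUZ12, RBBP4 and RBBP7, and the accessory subunits JARID2, PHF19, MTF2 and AEBP2. They were taken by symbol from the deposited gene table, which held all 10 of 10 members among 18164 genes. The libraries were 3 from LNCaP cells kept in 5 µM enzalutamide for 14 days and 3 from LNCaP cells given dimethyl sulfoxide (DMSO). LNCaP is an androgen-responsive human prostate cancer line, listed here as genotype WT, and enzalutamide is an antiandrogen drug used against prostate cancer. All dishes held 0.1% DMSO, were seeded with 150000 cells in medium with 10% serum and were refreshed every 72 h, per the labels' protocols. DMSO dishes were collected at 70 to 80% confluency, and neither their day of collection nor the density of treated dishes is given in the labels, so drug, time in culture and density cannot be told apart. Total counts were 42302153 to 52107644 in enzalutamide libraries and 35578160 to 42540487 in DMSO libraries. Mitochondrial genes took 12.14, 13.64 and 15.75% of counts with enzalutamide, against 10.45, 11.24 and 10.79% in DMSO, and the part of this difference in the results was not tested.

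PRC2 places methyl groups on a lysine of histone H3 (the mark H3K27me3) at silenced developmental genes. EZH2 or EZH1 carries the catalytic domain and works only when bound to SUZ12 and EED, of which EED reads the finished mark. EZH2 is known as the form of dividing cells and EZH1 as the form that persists in resting, differentiated cells. EZH2 is also widely studied in prostate cancer, where high levels go with advanced disease.

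The catalytic subunits moved in opposite directions. EZH2 (chromosome 7, 148807383 to 148884321, minus strand, hg38) had 417, 506 and 424 counts with enzalutamide, against 2386, 2758 and 2300 counts in DMSO. As CPM, counts scaled to a common library total with TMM factors, it was at 7.93, 9.56 and 10.1 with enzalutamide, against 65.3, 65.5 and 65.1 in DMSO. Every enzalutamide library lay far below every DMSO library. The log2 change was -2.83 ± 0.12 (SE, edgeR quasi-likelihood test, adjusted p = 3.47e-08), and EZH2 fell 7.11-fold. Of all genes tested, 2.47% had a lower log2 change.

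EZH1 (chromosome 17, 42700275 to 42745049, minus strand) had 2885, 2777 and 2290 counts with enzalutamide, against 1124, 1360 and 1110 counts in DMSO. Its values were 54.8, 52.5 and 54.4 CPM with enzalutamide, against 30.8, 32.3 and 31.4 CPM in DMSO. The groups did not overlap, and libraries of the same group lay within a few CPM of each other. EZH1 rose 1.71-fold, a log2 change of 0.78 ± 0.10 (SE, edgeR quasi-likelihood test, adjusted p = 6.25e-05), and 36.6% of all genes tested had a larger change in size.

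Per length, EZH1 lay above EZH2 in the treated cells and below it in DMSO. As RPKM, which is CPM per kilobase of exon, EZH2 was at 2.03 ± 0.248 and EZH1 at 7.72 ± 0.179 with enzalutamide, against 14.4 ± 0.0527 for EZH2 and 4.51 ± 0.112 for EZH1 in DMSO (SD, n = 3 per group). EZH2 made up 20.8 ± 2.23% of the summed EZH1 and EZH2 RPKM with enzalutamide and 76.2 ± 0.414% in DMSO (SD, n = 3 per group). The gain of EZH1 was smaller than the loss of EZH2, and the sum was 9.75 ± 0.232 RPKM with enzalutamide and 18.9 ± 0.150 RPKM in DMSO (SD, n = 3 per group). The log2 ratio of EZH2 to EZH1 was -1.93 ± 0.200 with enzalutamide and 1.68 ± 0.0330 in DMSO (SD, n = 3 per group), a 12.2-fold lower ratio. Exact two-sided permutation tests of the sum, the share and the ratio each gave p = 0.1, the smallest p that 3 against 3 libraries allow. Lengths are the union of all annotated exons, so levels set between genes depend on that choice, while the change of a ratio between groups does not.

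**Figure D1:**
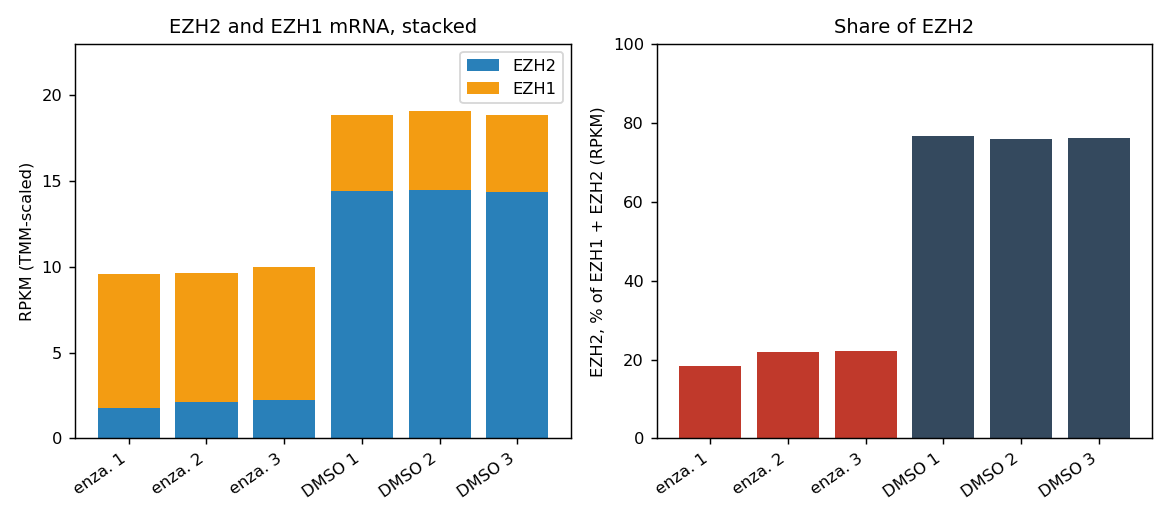
Left, RPKM of EZH2 and EZH1 stacked for each library; right, EZH2 as a percentage of the sum of both, for enzalutamide and DMSO replicates 1 to 3. EZH2 is the smaller portion in all 3 enzalutamide libraries and the larger in all 3 DMSO libraries.

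The sequence upstream of the EZH2, EZH1 and SUZ12 starts is shown because EZH2 and SUZ12 fell while EZH1 rose. The stretches are from RefSeq (GRCh38.p14), lie upstream of every annotated start, and are at chr7:148884322-148884541 (minus strand), chr17:42745050-42745290 (minus strand) and chr17:31936757-31937006 (plus strand). The last one spans the RefSeq start of EZH2 itself, chr7:148884272-148884301 (minus strand). Capitals mark matches on either strand to the E2F motif TTTNNCGC or to CCAAT, the box bound by NF-Y, and each line reads 5′ to 3′ along its gene's strand.
EZH2: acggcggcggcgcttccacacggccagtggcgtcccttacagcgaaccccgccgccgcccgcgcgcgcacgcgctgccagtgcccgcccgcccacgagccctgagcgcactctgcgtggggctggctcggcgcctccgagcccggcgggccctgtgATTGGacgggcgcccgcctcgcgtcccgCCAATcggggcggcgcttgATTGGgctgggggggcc
EZH1: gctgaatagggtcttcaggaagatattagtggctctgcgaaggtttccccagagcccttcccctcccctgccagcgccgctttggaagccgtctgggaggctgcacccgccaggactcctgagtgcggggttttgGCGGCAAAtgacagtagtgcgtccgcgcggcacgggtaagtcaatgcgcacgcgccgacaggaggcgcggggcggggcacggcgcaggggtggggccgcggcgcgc
SUZ12: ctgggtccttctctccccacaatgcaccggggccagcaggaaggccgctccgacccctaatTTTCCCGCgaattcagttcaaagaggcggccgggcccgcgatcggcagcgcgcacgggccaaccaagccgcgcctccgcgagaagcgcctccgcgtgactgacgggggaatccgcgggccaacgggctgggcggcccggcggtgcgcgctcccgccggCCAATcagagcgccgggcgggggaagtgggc
EZH2 start: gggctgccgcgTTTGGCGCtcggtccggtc
In the full window of 300 bases (250 before to 50 after the start), EZH2 held 4 CCAAT matches and 1 E2F match. EZH1 held 1 E2F match and had no CCAAT match, and SUZ12 held 1 of each. Over all listed starts, 7 of 10 members held the E2F motif, against 8.23% of 27305 genes, and 7 held CCAAT, against 39.7% of genes. Among 9191 promoters rich in CG pairs (the upper quartile, 28 or more per window), 10.3% held the E2F motif and 26.6% held CCAAT. These shares count each window on its own, whereas a member counted if any of its windows matched. Not every member window reaches that cutoff, and that of EED holds 16 pairs. The cell cycle element TTTGAA was in SUZ12 alone of the members, in 18.2% of genes and in 4.38% of the CG-rich promoters. The cyclic AMP element TGACGTCA was in JARID2 alone, in 2.25% of genes and in 3.42% of the CG-rich promoters. The GC box GGGCGG was in 8 of 10 members, in 48.3% of genes and in 88.3% of the CG-rich promoters. Both strands were read for each motif. Members with the E2F motif included some that fell, some that rose and some that did not pass, and binding of these factors was not measured.

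The core subunits that serve both methyltransferases had smaller changes than EZH2. SUZ12 (chromosome 17, 31937007 to 32001038, plus strand), the scaffold of the complex, was at 67.5, 91.9 and 83.7 CPM with enzalutamide, against 132, 112 and 127 CPM in DMSO. The groups did not overlap, and enzalutamide replicate 1 was the lowest library. SUZ12 fell 1.53-fold, a log2 change of -0.61 ± 0.13 (SE, edgeR quasi-likelihood test, adjusted p = 0.00201). Its pseudogene SUZ12P1, found by name, had 605 to 1082 counts per library against 3522 to 4860 for SUZ12. How much sequence they share was not measured, and a split of reads between them was not tested. SUZ12P1 was at 17.5, 20.5 and 22.2 CPM with enzalutamide, against 16.6, 15.6 and 17.1 CPM in DMSO. Its log2 change of 0.29 ± 0.12 did not pass (SE, edgeR quasi-likelihood test, adjusted p = 0.0679).

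EED (chromosome 11, 86244753 to 86278813, plus strand), the reader of the mark, was at 19.7, 23.5 and 22.3 CPM with enzalutamide, against 28.4, 29.3 and 27.4 CPM in DMSO. The groups did not overlap, and EED fell 1.30-fold (log2 change -0.38 ± 0.11, SE, edgeR adjusted p = 0.0142). That call was lost without DMSO replicate 1 (log2 change -0.37, adjusted p = 0.0556), without DMSO replicate 2 (-0.35, adjusted p = 0.0700) and with upper quartile scaling (edgeR, -0.25, adjusted p = 0.0823).

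RBBP4 and RBBP7 are paralogous histone-binding proteins that also serve in other chromatin complexes. RBBP4 (chromosome 1, 32651142 to 32686211, plus strand) was the most abundant member per length, at 305, 328 and 337 CPM with enzalutamide, against 418, 420.3 and 420.1 CPM in DMSO. It fell 1.30-fold without overlap of the groups (log2 change -0.38 ± 0.08, SE, edgeR adjusted p = 0.00305). The exons of SYNC overlap 1706 of its bases on the other strand, but SYNC had at most 48 counts in a library, and the copy RBBP4P1 at most 27. RBBP7 (chromosome X, 16839283 to 16870414, minus strand) was at 132, 139 and 129.8 CPM with enzalutamide, against 141, 137 and 137 CPM in DMSO. Its groups overlapped, and its log2 change of -0.05 ± 0.09 did not pass (SE, edgeR quasi-likelihood test, adjusted p = 0.621) and was above 0 with upper quartile scaling, at 0.07. The exons of TXLNG, on the other strand, overlap 179 of its bases.

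Accessory subunits define forms of PRC2 that differ in how they meet chromatin. JARID2, which binds nucleosomes and stimulates the enzyme, and AEBP2, a zinc finger protein, belong to the same form. JARID2 (chromosome 6, 15246069 to 15522042, plus strand) was at 66.9, 68.4 and 75.9 CPM with enzalutamide, against 44.9, 43.4 and 43.8 CPM in DMSO. All treated libraries lay above all DMSO libraries, and JARID2 rose 1.6-fold (log2 change 0.68 ± 0.10, SE, edgeR adjusted p = 0.000192). AEBP2 (chromosome 12, 19404045 to 19720801, plus strand) was at 56.1, 71.9 and 74.8 CPM with enzalutamide, against 57.9, 53.9 and 53.5 CPM in DMSO. Enzalutamide replicate 1 lay within the DMSO range and the others above it. The log2 change of 0.30 ± 0.12 did not pass (SE, edgeR quasi-likelihood test, adjusted p = 0.0614). It passed without enzalutamide replicate 1 (edgeR, 0.43, adjusted p = 5.03e-07) and under 3 other settings. In the fit without that library adjusted p also fell for EZH2, to 7.67e-29, and 12938 genes passed against 10754. With any other library left out AEBP2 did not pass (edgeR, adjusted p = 0.102 to 0.185). The authors' deposited table gives AEBP2 a false discovery rate of 0.0488.

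PHF19 and MTF2 are Polycomb-like proteins of the other form, with Tudor domains that bind methylated histone H3. MTF2 (chromosome 1, 93079235 to 93139079, plus strand) was at 21.3, 32.2 and 33.1 CPM with enzalutamide, against 46.1, 40.2 and 44.7 CPM in DMSO. The groups did not overlap, replicate 1 of the treated cells was the lowest, and MTF2 fell 1.51-fold (log2 change -0.60 ± 0.16, SE, edgeR adjusted p = 0.00964). PHF19 (chromosome 9, 120855651 to 120894896, minus strand) was the least abundant member, with 244, 171 and 138 counts with enzalutamide, against 97, 122 and 86 counts in DMSO. It was at 4.64, 3.23 and 3.28 CPM with enzalutamide, against 2.65, 2.90 and 2.43 CPM in DMSO, with replicate 1 of the treated cells the highest and no overlap. PHF19 rose 1.40-fold by a narrow margin (log2 change 0.48 ± 0.18, SE, edgeR adjusted p = 0.0400). That call was lost in edgeR without enzalutamide replicate 1 (log2 change 0.30, adjusted p = 0.0774), and without DMSO replicate 1 (adjusted p = 0.100), replicate 2 (adjusted p = 0.0594) or replicate 3 (adjusted p = 0.132). Of the other accessory proteins, LCOR, a corepressor whose locus also encodes a PRC2 binding partner, fell 1.63-fold, at 139.9 ± 19.7 CPM with enzalutamide and 228 ± 9.52 CPM in DMSO (SD, n = 3 per group). LCORL was at 17.9 ± 3.11 CPM with enzalutamide and 22.9 ± 2.06 CPM in DMSO (SD, n = 3 per group) and did not pass (edgeR adjusted p = 0.0541). Without enzalutamide replicate 1 both of these passed as lower. PHF1, listed only on an alternate scaffold, EPOP and EZHIP were not analysed here.

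**Figure D2:**
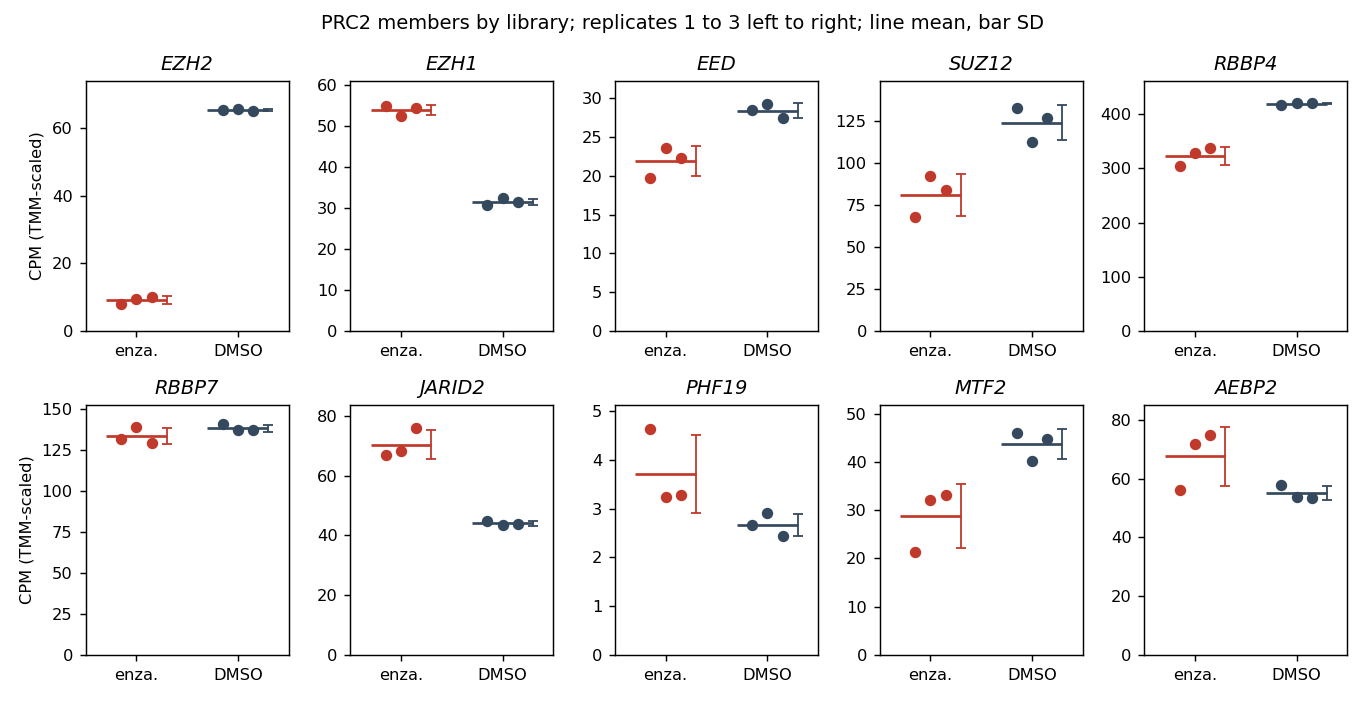
TMM-scaled CPM of the 10 members in each library, enzalutamide left and DMSO right, with the group mean as a line and the SD as a bar (n = 3 per group). Enzalutamide points lie wholly below DMSO points for EZH2, EED, SUZ12, RBBP4 and MTF2, wholly above them for EZH1, JARID2 and PHF19, and overlap them for RBBP7 and AEBP2.

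Of the 10 members 5 fell, 3 rose and 2 did not pass, and their median log2 change was -0.21. Among all genes tested 59.2% passed, 30.0% as higher and 29.2% as lower, and the median was -0.0037. Groups did not overlap in 8 of 10 members and in 66.4% of all genes. Of all genes tested, 42.0% had a change larger in size than JARID2, 45.7% than SUZ12 and 46.6% than MTF2. The share was 54.9% for PHF19, 63.2% for EED, 63.3% for RBBP4, 70.4% for AEBP2 and 94.6% for RBBP7. Without enzalutamide replicate 1 there were again 5 falls and 3 rises, with AEBP2 in place of PHF19, and upper quartile scaling gave 4 of each. Over all 18164 genes, leaving out that replicate gave 6470 higher and 6468 lower, against 5450 and 5304 with it. The list counts given below without that replicate are to be read beside this general increase. Enzalutamide replicate 1 held the lowest CPM of its group in 7 of 10 members. The same count was not made over all genes, so whether this was a trait of the library or of the members was not tested. Because these are bulk samples, fewer cells with a transcript and less of it per cell cannot be told apart.

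**Figure D3:**
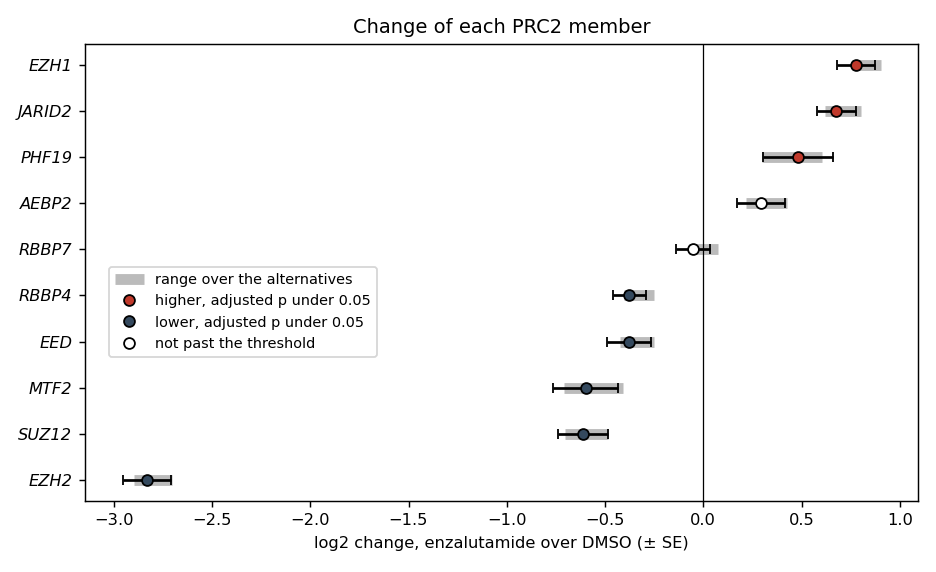
Log2 change of each member, enzalutamide over DMSO, with its SE as a bar and the range over the alternative settings in grey; red points rose, dark points fell (edgeR adjusted p under 0.05) and white points did not pass. EZH2 at -2.83 stands away from the other 9 members, which lie between -0.61 and 0.78.

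In the order of levels per length, EZH2 was the 9th of 10 members with enzalutamide and the 4th in DMSO. With enzalutamide the mean RPKM ran from RBBP4 (34.1) through RBBP7 (18.1), SUZ12 (12.4), JARID2 (11.3), AEBP2 (10.0), EZH1 (7.72), MTF2 (4.89), EED (3.21) and EZH2 (2.03) to PHF19 (0.564). In DMSO it ran from RBBP4 (44.3) through SUZ12 (18.9), RBBP7 (18.7), EZH2 (14.4), AEBP2 (8.16), MTF2 (7.40), JARID2 (7.05), EZH1 (4.51) and EED (4.17) to PHF19 (0.404). Neighbours whose ranges overlapped were SUZ12 with JARID2 and JARID2 with AEBP2 in enzalutamide, and SUZ12 with RBBP7 and MTF2 with JARID2 in DMSO.

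**Figure D4:**
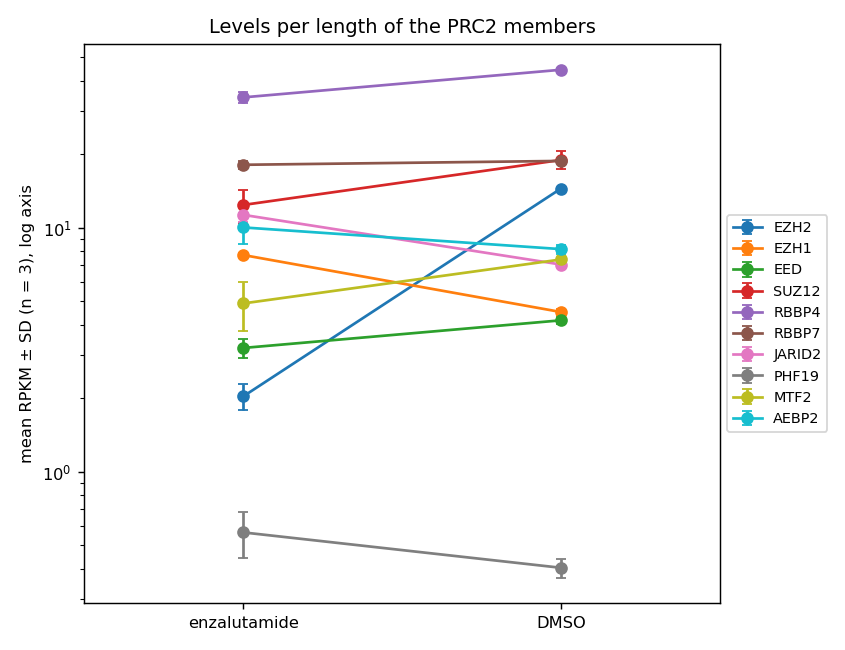
Mean RPKM of each member with its SD (n = 3 per group) on a log axis, enzalutamide left and DMSO right. EZH2 lies below AEBP2, MTF2, JARID2, EZH1 and EED with enzalutamide, at 2.03 RPKM, and above them in DMSO, at 14.4 RPKM.

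EZH2 mRNA was lower relative to the mRNAs of its obligate partners, while proteins and assembled complexes were not measured. The log2 RPKM ratio of EZH2 to SUZ12 was -2.60 ± 0.112 with enzalutamide and -0.39 ± 0.127 in DMSO (SD, n = 3 per group). That of EZH2 to EED was -0.66 ± 0.0928 with enzalutamide and 1.79 ± 0.0431 in DMSO (SD, n = 3 per group). These ratios were 4.65-fold and 5.49-fold lower with enzalutamide. The differences of the other ratios were smaller. RBBP7 to RBBP4 was -0.92 ± 0.0891 with enzalutamide and -1.24 ± 0.0270 in DMSO, and JARID2 to AEBP2 was 0.18 ± 0.168 with enzalutamide and -0.21 ± 0.0393 in DMSO (log2, SD, n = 3 per group). PHF19 to MTF2 was -2.36, -3.47 and -3.50 with enzalutamide and -4.28, -3.95 and -4.36 in DMSO (log2). That difference of 1.09 was 0.71 without enzalutamide replicate 1. All 6 ratios, EZH2 to EZH1 included, had groups that did not overlap and an exact permutation p = 0.1, also when adjusted over the 6.

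The profiles most like EZH2 were sought among protein-coding genes with a mean of at least 1 CPM, by the Euclidean distance of mean-centred log2 CPM over the 6 libraries. They were CENPH, a kinetochore protein (distance 0.124), UAP1, an enzyme of UDP-N-acetylglucosamine synthesis (0.125), GPSM2, a spindle orientation protein (0.152), GINS1, a subunit of the replicative helicase (0.167), and FBXO5, an inhibitor of the anaphase-promoting complex (0.186). Their log2 changes lay between -2.93 and -2.72. For EZH1 they included C6orf89 (0.0498), the carbonic anhydrase CA12 (0.0641), the tyrosine sulfotransferase TPST1 (0.0728) and the Golgi protein TGOLN2 (0.0752), with log2 changes between 0.73 and 0.80. For both EZH2 and EZH1, log2 changes near that of the member follow from the choice by distance.

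EZH2 fell beside genes of dividing cells. All 18 proliferation markers fell, with a median log2 change of -3.73, and 12 of them fell more than EZH2 and 6 less. MCM4, a subunit of the replicative helicase, was at 31.7 ± 0.956 CPM with enzalutamide and 224 ± 7.36 CPM in DMSO (SD, n = 3 per group). PCNA, the sliding clamp of replication, fell 4.75-fold, CCNA2, cyclin A2, 38.0-fold, TOP2A, a topoisomerase, 34.0-fold and RRM2, a ribonucleotide reductase subunit, 68.8-fold. Of 10 E2F and RB genes measured, 7 fell and 3 did not pass, or 7 fell and 1 rose without enzalutamide replicate 1. Of all genes 29.2% passed as lower. E2F1, described elsewhere as an activator of EZH2, fell 8.77-fold, and CDK2, a cell cycle kinase, fell 3.72-fold. The repressor E2Fs E2F7 and E2F8 fell 62.9-fold and 51.6-fold. E2F3 had a log2 change of -0.15 ± 0.10 and RB1 of 0.17 ± 0.12 (SE), and neither passed. The part of the proliferation genes in the EZH2 result was not tested.

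Subunits of the other complexes that hold RBBP4 or RBBP7 changed in both directions, as did all genes, of which 30.0% passed as higher and 29.2% as lower. Without enzalutamide replicate 1 the calls over all genes went from 10754 to 12938. CAF-1 and HAT1, which deposit and acetylate new histones, fell in 3 of 3 genes, CHAF1A 2.84-fold, HAT1 2.56-fold and CHAF1B 1.61-fold. In the NuRD deacetylase 4 of 12 fell and 2 rose, or 5 and 3 without enzalutamide replicate 1, with HDAC2 2.26-fold, MBD3 2.23-fold and MTA2 1.90-fold lower and the remodeller CHD3 2.11-fold higher. In the SIN3 deacetylase 4 of 13 fell and 3 rose, or 6 and 4 without enzalutamide replicate 1. There SAP30 was 2.55-fold and BRMS1L 1.67-fold lower, and SAP30L 1.98-fold and ING2 1.64-fold higher. In the NURF remodeller list 2 of 3 fell, or 1 without that library, with SMARCA5, an ATPase, 1.46-fold lower. SMARCA1, another ATPase of that list, was 1.77-fold lower at a low level. It was at 0.487 ± 0.142 CPM with enzalutamide and 0.859 ± 0.168 CPM in DMSO (SD, n = 3 per group). In MuvB and DREAM, which switch cell cycle genes, 7 of 11 fell and 2 rose. MYBL2, the activator subunit, fell 47.3-fold, LIN9 4.22-fold and the pocket protein RBL1 3.17-fold, while RBL2, the pocket protein of resting cells, rose 1.79-fold.

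Enzymes that remove the PRC2 mark or acetylate the same lysine rose in 4 of 4 genes, with a median log2 change of 0.63 against -0.0037 for all genes. KDM6A, a demethylase, was at 639.8 ± 78.0 CPM with enzalutamide and 316 ± 6.66 CPM in DMSO (SD, n = 3 per group), and KDM6B, its paralog, rose 1.30-fold. The acetyltransferases CREBBP and EP300 rose 1.72-fold and 1.39-fold. Of 16 MLL/COMPASS and ASH1L genes, which write marks of active genes, 3 rose, 5 fell and 8 did not pass. Without enzalutamide replicate 1, 4 rose and 6 fell. The shares over all genes were 30.0% higher and 29.2% lower. KMT2C, a methyltransferase, rose 2.40-fold, while PAXIP1 fell 2.18-fold, MEN1 1.98-fold and PSIP1 1.65-fold.

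PRC1 ubiquitinates histone H2A, and its canonical form binds the PRC2 mark through CBX proteins. Of 12 canonical members 3 rose, 2 fell and 7 did not pass, or 6 rose and 3 fell without enzalutamide replicate 1. For comparison, 30.0% of all genes passed as higher and 29.2% as lower. CBX2, a reader of the mark, fell 2.93-fold, at 9.98 ± 1.87 CPM with enzalutamide and 29.3 ± 1.23 CPM in DMSO (SD, n = 3 per group). Its paralog CBX7 rose 2.55-fold, at 58.0 ± 13.3 CPM with enzalutamide and 22.7 ± 1.6 CPM in DMSO (SD, n = 3 per group). SCML2 fell 6.03-fold and PHC1, a polyhomeotic protein, rose 1.76-fold. Of 14 variant PRC1 members 4 rose and 5 fell, or 4 and 6 without that library, among them AUTS2 3.96-fold, PCGF5 2.31-fold and the corepressor BCOR 1.74-fold higher and PCGF3 1.65-fold lower. In PR-DUB, which removes the H2A mark, 2 of 9 rose and 3 fell, or 4 and 3 without enzalutamide replicate 1. MBD5 was 2.00-fold and MBD6 1.37-fold higher, and FOXK1 1.41-fold and HCFC1 1.37-fold lower.

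Among other methylation systems, 4 of 5 H3K9 methyltransferases fell and 1 did not pass, beside 29.2% of all genes that passed as lower. Without enzalutamide replicate 1 there were 4 falls and 1 rise. SUV39H2 fell 5.49-fold, SUV39H1 2.48-fold, SETDB1 1.25-fold and EHMT1 1.21-fold. Of 7 DNA methylation genes 5 fell and 2 rose, with UHRF1, which recruits DNMT1 at replication, 29.6-fold lower, DNMT1 2.70-fold lower, DNMT3B 1.43-fold lower and DNMT3A 1.43-fold higher. Of 4 H3K36 methyltransferases, whose mark hinders PRC2, NSD2 fell 2.13-fold and NSD3 1.27-fold, and NSD1 and SETD2 did not pass, while without enzalutamide replicate 1 there were 2 falls and 1 rise.

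**Figure D5:**
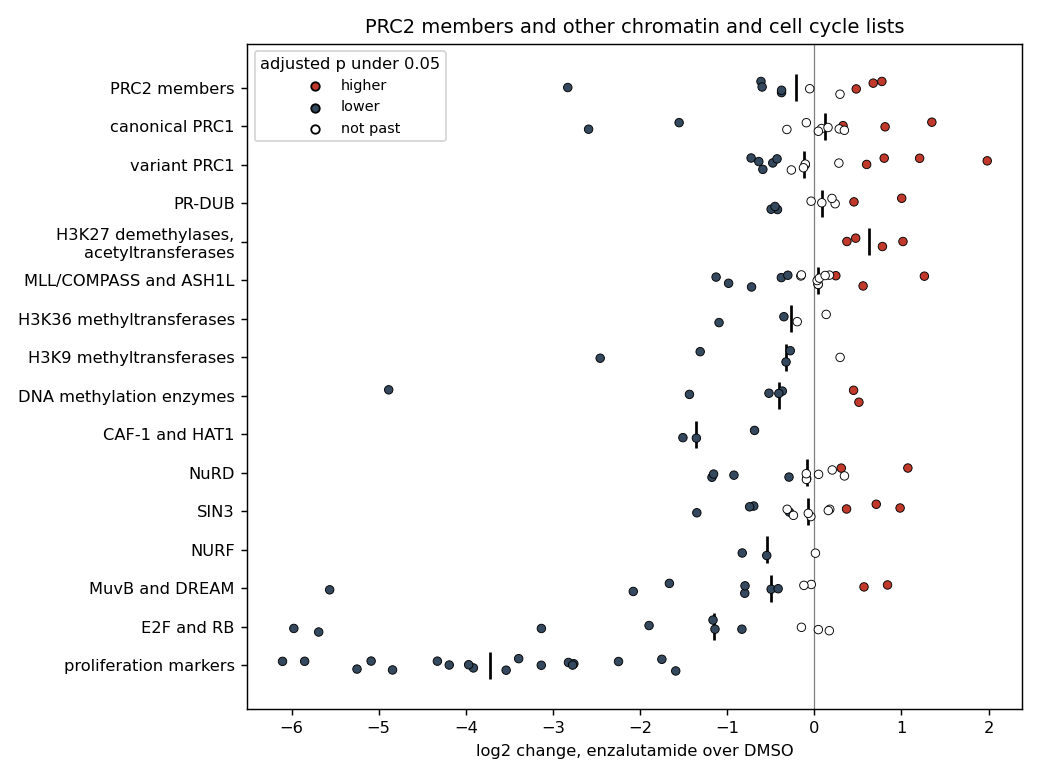
Log2 change of each measured gene, enzalutamide over DMSO, by list, with the list median as a vertical line, and points red where they rose, dark where they fell (edgeR adjusted p under 0.05) and white where they did not pass. The median is -0.21 for PRC2 members, 0.63 for the H3K27 demethylases and acetyltransferases and -3.73 for proliferation markers.

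Histone marks were not measured, so genes known elsewhere as PRC2 targets were read only as transcripts. Of 17 genes described as repressed through EZH2 in cancer cells, 11 were measured, of which 6 rose and 4 fell. Over all genes 30.0% passed as higher and 29.2% as lower. CCN3, a secreted matrix protein, was 33.5-fold higher, CDKN2B, a cell cycle inhibitor, 4.30-fold and VASH1 2.04-fold, while BMPR1B, a BMP receptor, fell 56.3-fold, MSMB, a secreted prostate protein, 4.94-fold and CDKN2A, a cell cycle inhibitor, 2.01-fold. Of 61 developmental regulators typical of Polycomb domains, 24 were measured, of which 17 rose and 6 fell. Genes of low level entered the table through the group where they were high and so had to differ, and the counts are given as a description of these 24 only. SHH, a morphogen, had 0 counts in each DMSO library and was at least 652-fold higher with enzalutamide, and EVX1, a homeobox gene at 0 in the same libraries, was at least 15.4-fold higher (floor of 3 counts per library). SIX2, a homeobox gene, had 633 counts over the enzalutamide libraries and 3 over the DMSO libraries, 163-fold higher (exact 95% counting interval 55.5 to 792). IRX3, another homeobox gene, was at 121 ± 14.1 CPM with enzalutamide and 3.81 ± 0.492 CPM in DMSO (SD, n = 3 per group). A link between EZH2 and any of these genes was not tested.

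All 12 prostate luminal markers of LNCaP were measured, of which 6 rose, 4 fell and 2 did not pass. Without enzalutamide replicate 1, 6 rose and 5 fell. Here too the shares over all genes were 30.0% higher and 29.2% lower. FOLH1, prostate-specific membrane antigen, was at 2314 ± 119.6 CPM with enzalutamide and 1454 ± 53.2 CPM in DMSO, and KLK3, prostate-specific antigen, was at 194 ± 28.4 CPM with enzalutamide and 2582 ± 21.5 CPM in DMSO (SD, n = 3 per group). Of the markers of other cell types, 0 of 6 leukocyte, 4 of 7 fibroblast, 3 of 6 endothelial and 4 of 6 basal-like markers were measured. Of the fibroblast markers 2 rose and 1 fell, with log2 changes between -0.49 and 1.78, or 3 rose and 1 fell without enzalutamide replicate 1. Of the endothelial markers 1 rose and 1 fell, with log2 changes between -0.64 and 2.19. Among basal-like markers 1 rose and 2 fell, with log2 changes between -1.76 and 0.50, or 0 rose and 2 fell without enzalutamide replicate 1. COL3A1, a fibroblast collagen, was at 2.92 ± 0.175 CPM with enzalutamide and 0.837 ± 0.252 CPM in DMSO, and EMCN, an endothelial mucin, was at 2.79 ± 0.431 CPM with enzalutamide and 0.617 ± 0.197 CPM in DMSO (SD, n = 3 per group). Summed fibroblast markers were at 11.9 to 13.1 CPM with enzalutamide and 13.1 to 13.5 CPM in DMSO. Summed endothelial markers were at 9.41 to 12.3 CPM with enzalutamide and 11.2 to 13.4 CPM in DMSO, and basal-like markers at 5.58 to 7.15 CPM with enzalutamide and 6.70 to 7.17 CPM in DMSO. The part of these markers in the PRC2 results was not tested. Luminal markers summed to 10212 to 10842 CPM with enzalutamide and 9745 to 9895 CPM in DMSO.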

How the data were processed

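Poly(A) RNA of 6 LNCaP samples was sequenced from both fragment ends with 100 bases each, as the labels' protocols state. The submitters' processing notes name hg38 and the tools bcl2fastq, featureCounts, STAR 2.5, edgeR 3.20.8 and Subread 1.6.5. Read counts as whole numbers, for 18164 genes in each library, were deposited by the authors. The same deposited table holds log2 CPM, log2 RPKM, log2 fold changes, p-values and gene lengths. From the values, low genes had been removed: the third highest count of a gene is at least 9. No source states the strand setting of the counting.

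The edgeR 4.0.16 package in R 4.3.3 was run on the counts (TMM, robust quasi-likelihood F test on group, 4 residual degrees of freedom), with Benjamini-Hochberg adjustment over all genes and a threshold of 0.05. The SE is the size of the log2 change over the square root of F. CPM and RPKM were computed from the counts. Floors and counting intervals cover counting error only. Alternatives used other scalings and filters, the replicate block, edgeR's exact test, limma 3.58.1, DESeq2 1.42.0 and each library left out. The list counts without enzalutamide replicate 1 were chosen after seeing the data.

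Groups and replicate numbers came from the titles. Separate cultures are not stated for the replicates, which may be technical, and p-values reflect no more than their spread. The members and all 24 lists were chosen with earlier results of these data known. Of 276 list entries 211 were measured on the primary chromosomes. Genes were named by rule: all members, the other PRC2 accessory proteins, the members' copies and overlapping genes, up to 4 changed genes of each list, ranked by size of change with a mean of 1 CPM or more in the higher group, and the 5 profiles nearest to EZH2 and to EZH1. FOLH1, MCM4, PCNA, E2F3, RB1, VASH1, CDKN2A, NSD1, SETD2 and SMARCA1 are examples chosen after their values were seen. A few genes that this rule names are not reported here.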

Additional observations from a re-analysis of the deposited data

How the results depend on the processing

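The 6 ratios kept their direction, and the counts of changed genes and of changed members stayed within 1.5 times the reported ones, under every alternative run. Changed genes numbered 8659 to 12938 against 10754, and upper quartile scaling moved the median of all genes to 0.12 (log2) and the share of higher among changed genes to 59.5% from 50.7%. Changed members numbered 6 to 9 against 8. Leaving out each library in turn gave differences of -3.68 to -3.50 for EZH2 to EZH1, -2.27 to -2.14 for EZH2 to SUZ12 and -2.51 to -2.43 for EZH2 to EED. EZH2 changed by -2.90 to -2.70 and EZH1 by 0.76 to 0.90 over all settings, and the calls of EZH2, EZH1, SUZ12, RBBP4, JARID2 and MTF2 held in each. RBBP7 reversed to 0.0742 with upper quartile scaling (edgeR adjusted p = 0.493). PHF19 was lost with limma-voom (0.46, adjusted p = 0.0531). AEBP2 passed with upper quartile scaling (0.42, adjusted p = 0.0137), library size alone (adjusted p = 0.0437) and edgeR's exact test (adjusted p = 0.0493). The cause of these was not tested. Same-numbered libraries did not deviate together (correlations of -0.27, -0.37 and 0.15), so the numbers were not taken as pairs. With the replicate number as a block 10174 genes and 8 members changed. The reported fit used no low-count filter of its own, so the setting without a filter was the same fit and tested nothing. The filter of edgeR would have kept all 18164 genes.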
